A study of Mus musculus with 6 samples.

Results

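Ptprc, Csf1r, Cd68, C1qa, C1qb, Spi1, Adgre1, Cx3cr1, Laptm5 and Coro1a are 10 genes of macrophages and other leukocytes, and they were examined among 21938 protein-coding genes in ATAC-Seq peaks of mouse heart nuclei. The genes were chosen by name, and every peak that overlapped a gene body or the 10 kb on either side of it was taken, with gene models of GENCODE M21 on the mm10 assembly. ATAC-Seq inserts adapters into DNA that is free of nucleosomes, so a peak marks open chromatin. There were 6 libraries in 3 groups of 2 replicates, all made from P1 hearts (postnatal day 1) with 50000 nuclei that had passed a 2.2 M sucrose cushion. Input nuclei were from WT hearts with no immunoprecipitation. The paper reports that this sucrose cushion, without any antibody, leaves almost only cardiomyocyte nuclei, judged by staining and marker transcripts. It was chosen there partly to keep peaks of other cell types out of the Myc maps. Input was therefore not a sample of unselected heart nuclei. PCM1 nuclei were from WT hearts and were captured on magnetic beads with an antibody to PCM1, a centrosomal protein that collects on the nuclear envelope of cardiomyocytes. Myc nuclei were from hearts carrying Nkx2-5 Cre/+ and R26RSun1-Myc-Egfp/+ and were captured with an antibody to the Myc tag, which Cre switches on in cells with a history of Nkx2-5 expression, a lineage that includes cardiomyocytes, smooth muscle and some endothelial cells. The study took Input as an aliquot of cushion-purified nuclei and used the remainder for capture, and whether libraries with the same replicate number share a preparation, or hearts were pooled for a library, is not given in the sources used here.

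Macrophages are the main resident leukocytes of the heart. Their development depends on PU.1, the ETS-family transcription factor encoded by Spi1, and on the receptor Csf1r, and PU.1 binds purine-rich sites with the core GAGGAA at many macrophage genes. Neither antibody was directed at a macrophage protein.

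The lists held 131500 and 75336 peaks (Input), 107216 and 108513 (Myc) and 83139 and 81487 (PCM1). The most frequent background pileup, used as a measure of depth, was 3.96 in Input replicate 1 and between 0.9 and 1.44 in the other 5 libraries, so Input replicate 1 was 4.4 times as deep as the shallowest. The weakest called summit had a pileup of 11 in Input replicate 1 and of 5 or 6 elsewhere. A missing peak therefore means that none was called at that depth, and does not show whether the chromatin was closed. The main counts and group comparisons were also made on lists shortened to their 75336 strongest peaks, called equal lists. In bulk nuclei, fewer cells of a type and less open chromatin per cell cannot be told apart. Peak strength is given as a rank percentile, the rank of the peak's q-value within its own library, in which 100 is the strongest peak and 0 stands for no peak.

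The RefSeq promoter table of GRCm38.p6 matched 6 of the 10 genes. The sequences below, windows of 300 bases across a start, are shown because they span the outcomes at these starts, from calls in 3 libraries to no call, with the promoter of the cardiomyocyte gene Mybpc3, which lies beside Spi1, for comparison. The last is the centre of an intronic peak of Ptprc that was called in 5 libraries. Capitals mark GAGGAA on either strand, so TTCCTC is the same core on the other strand.
Coro1a, chr7:126704767-126705066, minus strand: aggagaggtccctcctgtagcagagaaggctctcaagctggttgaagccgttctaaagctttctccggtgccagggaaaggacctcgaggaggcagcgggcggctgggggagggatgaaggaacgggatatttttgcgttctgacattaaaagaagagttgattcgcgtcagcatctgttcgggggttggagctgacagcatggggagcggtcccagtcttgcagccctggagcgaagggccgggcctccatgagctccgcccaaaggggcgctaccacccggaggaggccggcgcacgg
C1qb, chr4:136886151-136886450, minus strand: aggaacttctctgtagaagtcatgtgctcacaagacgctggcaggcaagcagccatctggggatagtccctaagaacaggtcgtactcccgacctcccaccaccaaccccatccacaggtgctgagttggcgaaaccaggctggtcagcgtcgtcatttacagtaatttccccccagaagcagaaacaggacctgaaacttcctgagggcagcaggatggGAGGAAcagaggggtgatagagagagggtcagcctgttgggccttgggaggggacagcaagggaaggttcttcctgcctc
Laptm5, chr4:130913066-130913365, plus strand: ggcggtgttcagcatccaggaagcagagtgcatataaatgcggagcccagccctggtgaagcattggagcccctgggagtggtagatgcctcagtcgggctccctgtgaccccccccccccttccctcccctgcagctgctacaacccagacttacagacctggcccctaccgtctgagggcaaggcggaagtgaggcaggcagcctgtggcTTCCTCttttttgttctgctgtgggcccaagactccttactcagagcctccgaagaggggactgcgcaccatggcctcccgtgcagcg
Ptprc, chr1:138175256-138175555, minus strand: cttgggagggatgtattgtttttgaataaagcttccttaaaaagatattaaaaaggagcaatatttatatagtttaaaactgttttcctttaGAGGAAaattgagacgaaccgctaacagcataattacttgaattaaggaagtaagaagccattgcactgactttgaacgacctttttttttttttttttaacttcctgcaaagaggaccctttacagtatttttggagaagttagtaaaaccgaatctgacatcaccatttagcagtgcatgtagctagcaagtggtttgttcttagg
Cd68, chr11:69666121-69666420, minus strand: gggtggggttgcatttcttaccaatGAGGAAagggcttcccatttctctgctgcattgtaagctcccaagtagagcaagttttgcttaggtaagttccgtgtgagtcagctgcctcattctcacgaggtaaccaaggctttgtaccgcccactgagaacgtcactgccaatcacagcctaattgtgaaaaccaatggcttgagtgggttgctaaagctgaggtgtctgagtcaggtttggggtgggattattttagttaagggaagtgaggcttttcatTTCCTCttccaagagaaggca
Mybpc3, chr2:91117894-91118193, plus strand: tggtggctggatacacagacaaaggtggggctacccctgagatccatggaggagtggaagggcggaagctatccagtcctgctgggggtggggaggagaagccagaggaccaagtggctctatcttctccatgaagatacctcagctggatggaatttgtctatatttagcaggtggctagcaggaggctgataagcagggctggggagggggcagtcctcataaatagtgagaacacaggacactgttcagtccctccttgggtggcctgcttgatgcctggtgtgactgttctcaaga
Ptprc intron, chr1:138085934-138086134, minus strand: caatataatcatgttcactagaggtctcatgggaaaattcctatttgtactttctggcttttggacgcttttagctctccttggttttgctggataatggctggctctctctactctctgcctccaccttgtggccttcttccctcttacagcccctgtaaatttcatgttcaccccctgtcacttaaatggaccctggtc
The Coro1a window overlapped a peak in Input replicate 1 and both Myc libraries, the C1qb window in Input replicate 1, Myc replicate 1 and PCM1 replicate 2, and the Laptm5 window in Myc replicate 1. The Ptprc and Cd68 windows overlapped no peak, and the Mybpc3 window overlapped a peak in all 6 libraries. GAGGAA stood in 4 of the 8 windows listed for the members, against 28.3% of the 32851 RefSeq promoter windows. The longer GAGGAAGT, which contains it, stood in none of the 8 and in 3.20% of all windows. These matches describe letters in a window and are not binding sites. The Coro1a window held 19 CpG and the Mybpc3 window 1.

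The first comparison asked how often the members had an open start. A peak within 1 kb of the annotated 5′ end of the gene was called for 3 and 1 members (Input), 3 and 1 (Myc) and 0 and 1 (PCM1). Over all protein-coding genes the shares were 66 and 59.8% (Input), 63.7 and 63.5% (Myc) and 60.2 and 59.9% (PCM1). In at least 1 library a peak was called at 4 members (C1qa, C1qb, Spi1 and Laptm5), against 68.2% of all genes, and in all 6 libraries at 0 members, against 56.1%. The median percentile over the members was 0 in every library, while the median over all genes lay between 55.9 and 77.8. In the equal lists only Spi1 kept a peak at its 5′ end. Of all genes, 64.8% had one there in at least 1 library and 54.9% in all 6. Most of the calls at member starts were therefore among the weaker peaks of the longer lists.

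The annotated 5′ end is not always the start that coding transcripts use. Coding transcripts of Csf1r start 4974 to 5254 bp inside the gene, those of Coro1a 0 to 4614 bp and those of Spi1 0 to 14390 bp. With a peak at any coding start counted, Coro1a joined the list, and 5 members had a peak in at least 1 library and 0 in all 6, against 71.6 and 59.9% of all genes. Ptprc, Csf1r, Cd68, Adgre1 and Cx3cr1 had no peak at any coding start in any library.

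**Figure D1:**
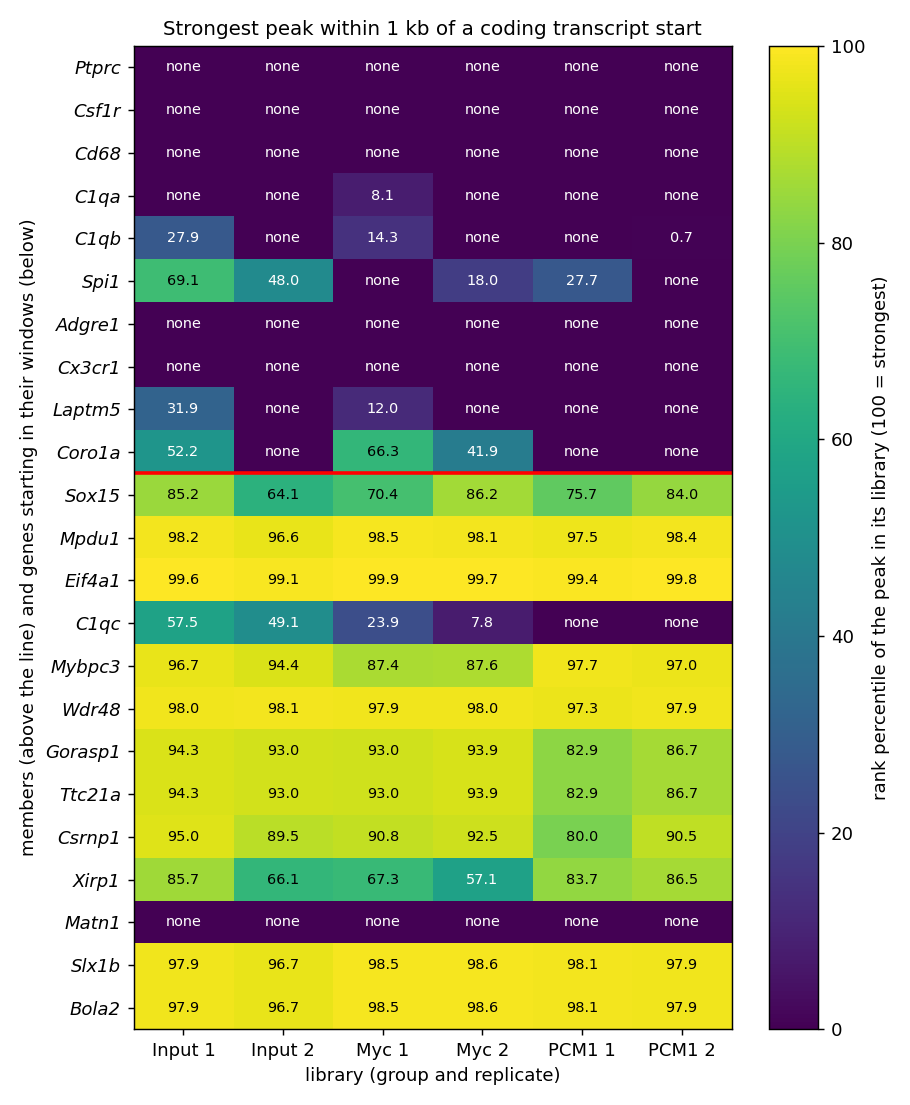
Heat map of the rank percentile (0 to 100) of the strongest peak within 1 kb of any coding transcript start, with 1 row per gene and 1 column per library; the red line separates the 10 members from the genes that start inside their windows. The members are mostly without a peak, while the genes below the line, apart from Matn1 and C1qc, have one in all 6 libraries.

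Spi1 (ENSMUSG00000002111.8, chr2:91082390-91115756, plus strand) was the member with the strongest peak at its 5′ end. The peak lay 677 bp inside the gene, in the first intron of transcript ENSMUST00000169852.1. Other coding transcripts of Spi1 start 13706 and 14390 bp inside the gene. Whether the peak marks a promoter was not tested. Its percentile was 69.1 and 48.0 (Input) and no peak and 18.0 (Myc), with no peak in either PCM1 library. Both Input values were above all 4 others, a pattern found at 3.26% of all genes and at 1 of the 10 members. The Input values were 46.0 and 48.0 in the equal lists, where no other library had the peak. PCM1 replicate 1 had a peak at 27.7 near the coding start 14390 bp inside the gene, and no other library had one there. Within 500 bp of the 5′ end, a peak was called in Input replicate 1 (69.1) and Myc replicate 2 (18.0) and in no other library. The background pileup was 1.02 in Input replicate 2 and 0.98 and 0.9 in PCM1, and the part of depth was not tested. With 2 libraries against 4, a two-sided exact permutation test cannot give a p below 0.133, so the difference between Input and the other groups was not tested.

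Other open sites of the Spi1 gene were present in every group. A region in the intron 19271 bp from the 5′ end was called at percentiles of 87.8 and 81.1 (Input), 85.2 and 92.0 (Myc) and 75.7 and 78.9 (PCM1), with pileups between 30 and 149. A region in an exon, 32922 bp from the 5′ end and close to the 3′ end of the gene, had 84.6 and 64.8 (Input), 92.2 and 92.0 (Myc) and 48.8 and 48.8 (PCM1). The start of Mybpc3 lay close by, 35754 bp from the same 5′ end. The fold over local background was 4.44 and 3.99 (Input), 8.74 and 8.61 (Myc) and 2.66 and 2.81 (PCM1). To which gene this region belongs was not tested. Both Myc values were the highest at this region, also in the equal lists, where that order was found at 12.6% of all regions. An intergenic region 3559 bp before the 5′ end had 43.3 and 11.4 (Input), 46.9 and 41.2 (Myc) and 59.7 and 49.5 (PCM1), and there both PCM1 values were the highest. They were also the highest in the equal lists, an order found there at 10.3% of all regions. The region at the 5′ end and these 3 regions thus did not share 1 order of the groups.

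The start of Mybpc3, which encodes cardiac myosin-binding protein C, lay 35754 bp from the 5′ end of Spi1 and had percentiles of 96.7 and 94.4 (Input), 87.4 and 87.6 (Myc) and 97.7 and 97.0 (PCM1). The 5′ end of Spi1 was lower in 6 of 6 libraries. With any coding start counted, the mean difference was -66.4 in percentile. At the 5′ end it was -71.0 ± 28.8 (SD, n = 6), with means of 22.5 and 93.5. An exact permutation test by sign flips (two-sided) gave p = 0.0312, the smallest that 6 libraries allow, and 0.0312 after Benjamini-Hochberg adjustment over 2 pairs. The other of the 2 pairs, Csf1r against Pdgfrb, carries no information. The pair of Spi1 and Mybpc3 was chosen with earlier results of these data known, so its p-value gives no independent support for the difference. The libraries of different groups are not replicates of 1 condition, so the test speaks of these 6 libraries.

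**Figure D2:**
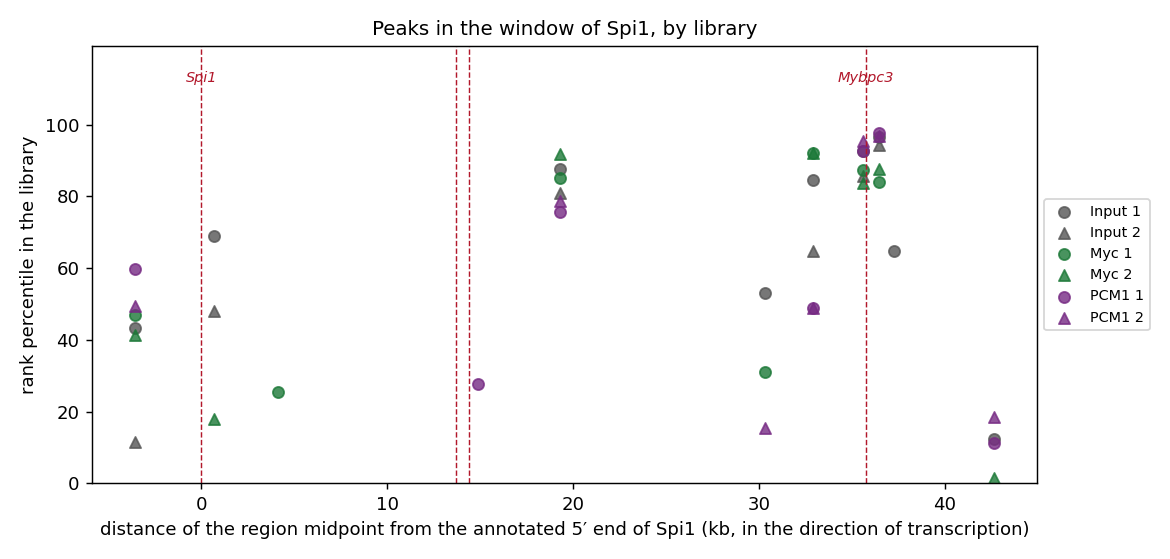
Rank percentile in each library (0 to 100) of every merged region in the Spi1 window against its distance from the Spi1 5′ end in kb; colours are groups, circles replicate 1 and triangles replicate 2, and dashed lines mark the 3 coding starts of Spi1 and the start of Mybpc3. The regions at the start of Mybpc3 sit above 80 in all 6 libraries, while the region at the Spi1 5′ end has no point from either PCM1 library.

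The complement genes C1qa, C1qb and C1qc encode the 3 chains of C1q, the recognition protein of the classical complement pathway, which tissue macrophages produce. C1qa (ENSMUSG00000036887.5) and C1qb (ENSMUSG00000036905.8) lie on the minus strand of chromosome 4 with C1qc between them, and their windows overlap, so some peaks count for both. At the start of C1qa a peak was called in Myc replicate 1 alone, at a percentile of 8.1. At the start of C1qb it was 27.9 in Input replicate 1, 14.3 in Myc replicate 1 and 0.73 in PCM1 replicate 2. None of these calls was left in the equal lists.

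A region in this cluster in which both Input values were above all others lay at chr4:136893929-136894451, between C1qa and C1qc, with its edge within 1 kb of the start of C1qc. Its percentile was 57.5 and 49.1 (Input), 9.73 and 7.80 (Myc) and no peak and 3.55 (PCM1). It was 25.8 and 49.1 (Input) in the equal lists and was called in no other library, a pattern found at 1.01% of all regions. Both Input libraries ranked above all 4 others, with or without calls elsewhere, at 6.25% of all regions. A region 8435 bp before C1qa had 57.8 and no peak (Input), 53.8 and 55.2 (Myc) and 23.8 and no peak (PCM1). A region 9107 bp from the 5′ end of C1qb, beyond its 3′ end, had 56.8 and 39.4 (Input), no peak and 60.3 (Myc) and 45.4 and no peak (PCM1). With all peaks the groups overlapped at both flanking regions. The region before C1qa had 34.3 and 35.5 (Myc) in the equal lists, above 26.4 and no peak (Input) and 15.9 and no peak (PCM1). Both Myc values were above all others at 12.6% of all regions in these lists. The groups still overlapped at the region beyond C1qb.

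**Figure D3:**
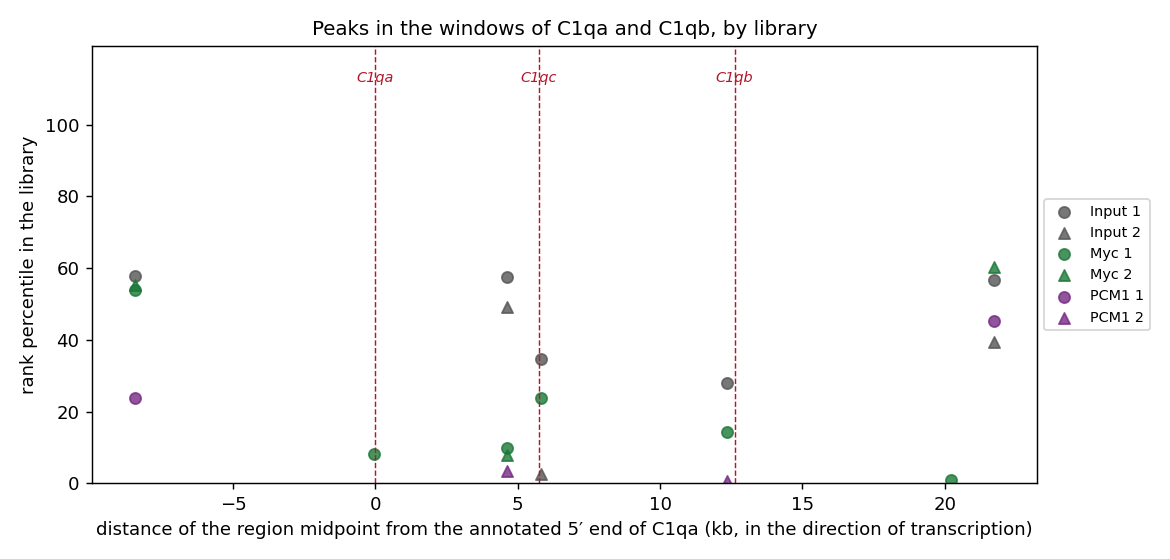
Rank percentile in each library (0 to 100) of every merged region in the C1qa and C1qb windows against its distance from the C1qa 5′ end in kb; colours are groups, circles replicate 1 and triangles replicate 2, and dashed lines mark the 5′ ends of C1qa, C1qc and C1qb. Between C1qa and C1qc the Input libraries sit at 57.5 and 49.1, above the other 4.

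Csf1r (ENSMUSG00000024621.16, chr18:61100598-61132149, plus strand) encodes the receptor for CSF1 and IL-34, on which most tissue macrophages depend. It had no peak at its 5′ end or at any coding start. A region in the second intron of transcript ENSMUST00000025523.12, 8124 bp from the 5′ end of the gene and 2870 bp from the nearest coding start, was called in all 6 libraries. The percentiles were 63.1 and 52.6 (Input), 49.8 and 35.6 (Myc) and 49.5 and 13.7 (PCM1), with pileups between 11 and 56. Both Input values were above the other 4 with all peaks, as at 5 of the 69 merged regions in the member windows (7.25%). The share over all regions is given for the equal lists only, at 6.25%. In the equal lists the Input values were 35.6 and 52.6, against 28.6 and 7.3 in Myc and 44.2 and 6.6 in PCM1, and the groups overlapped. The intron after the first coding exon of Csf1r is known to hold the FIRE enhancer. Whether this region is that element was not tested.

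Pdgfrb, a receptor gene of pericytes and fibroblasts that lies just before Csf1r, had a peak at its 5′ end in all 6 libraries, at 68.0 and 45.8 (Input), 63.1 and 61.9 (Myc) and 64.5 and 20.5 (PCM1). Its mean was 54.0 ± 18.1 (SD, n = 6), and Csf1r had no start peak in any of the 6. Since Csf1r was at 0 throughout, a test of the difference carries no information and none is given.

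Ptprc (ENSMUSG00000026395.16, chr1:138062861-138175708, minus strand) encodes CD45, a phosphatase on the surface of nearly all leukocytes. It had 3 open regions, all in introns. The region 89701 bp from the 5′ end, whose central sequence is given above, had 61.7 and 51.9 (Input), 62.5 and 72.4 (Myc) and no peak and 31.6 (PCM1). Both Myc values were the highest with all peaks, as at 4 of the 69 merged regions in the member windows (5.80%). The share over all regions is given for the equal lists only, at 12.6%. In the equal lists, with 33.2 and 51.9 in Input against 46.6 and 60.3 in Myc, the groups overlapped. The other 2 regions were called in Input replicate 1 and Myc replicate 2 alone, at 50.5 and 60.3 for the region at 48645 bp and at 21.4 and 31.6 for that at 39178 bp, both in intron 2.

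Adgre1 (ENSMUSG00000004730.15, chr17, plus strand) encodes F4/80, a classical surface marker of mouse macrophages. No peak was called in its window of 144837 bp in any library. Laptm5 (ENSMUSG00000028581.17, chr4, plus strand), which encodes a lysosomal membrane protein of blood cells, had 7 regions, of which 6 were called in 1 library each. The other, an intergenic region 6686 bp before the 5′ end, had 77.2 and 42.9 (Input), 65.1 and 54.2 (Myc) and 72.7 and 75.4 (PCM1). The groups overlapped with all peaks, and in the equal lists both PCM1 values, 69.9 and 73.4, were above the other 4, the highest of which was 60.1. That order was found at 10.3% of all regions in these lists.

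Coro1a (ENSMUSG00000030707.15, chr7:126699773-126707787, minus strand) encodes coronin 1A, an actin-binding protein of leukocytes. Its region 30 bp from a coding start, which overlaps the promoter sequence given above, had 52.2 and no peak (Input), 66.3 and 41.9 (Myc) and no peak (PCM1). An exonic region 6482 bp from the 5′ end had 74.7 and 51.6 (Input), 69.2 and 69.8 (Myc) and 57.4 and 44.7 (PCM1), and so was present in every library. Both Myc values were the highest there in the equal lists, an order found at 12.6% of all regions in those lists.

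Cd68 (ENSMUSG00000018774.13, chr11, minus strand), which encodes a lysosomal glycoprotein of macrophages, had 4 peaks in its window in every library, and none of them at Cd68. They lay at the starts of Eif4a1, a translation initiation factor (99.1 to 99.9), Mpdu1 (96.6 to 98.5) and Sox15 (64.1 to 86.2), with a further region in an intron of Eif4a1.

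Cx3cr1 (ENSMUSG00000052336.7, chr9:119901616-120069879, minus strand) encodes the receptor for fractalkine. Its window held 22 and 15 peaks (Input), 16 and 16 (Myc) and 14 and 16 (PCM1). The gene is 168264 bp long in GENCODE M21 and 19614 bp in RefSeq, because a long transcript runs across Xirp1, Csrnp1, Gorasp1 and Ttc21a. With the RefSeq gene the window held 4 and 1 peaks in Input and 1 in each of the other 4 libraries. Of its 25 regions, 13 were called in all 6 libraries, and 1 of these 13 lay in the RefSeq window. That region, 3446 bp before the 5′ end, had 82.3 and 70.0 (Input), 88.4 and 79.0 (Myc) and 78.0 and 76.2 (PCM1). The other 12 lay beyond that window, among them the start of Xirp1, which encodes a protein of cardiac intercalated discs, with 85.7 and 66.1 (Input), 67.3 and 57.1 (Myc) and 83.7 and 86.5 (PCM1) there.

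**Figure D4:**
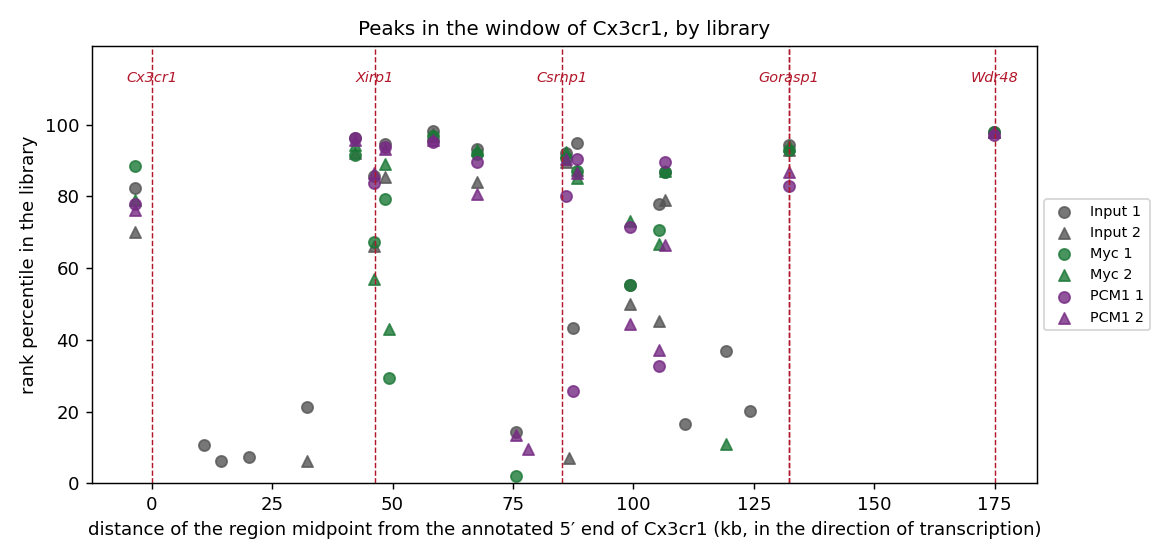
Rank percentile in each library (0 to 100) of every merged region in the Cx3cr1 window against its distance from the Cx3cr1 5′ end in kb; colours are groups, circles replicate 1 and triangles replicate 2, and dashed lines mark the 5′ ends of Cx3cr1 and its neighbours (Ttc21a shares the line of Gorasp1). The 3 regions within 25 kb after the Cx3cr1 5′ end are seen in Input replicate 1 alone and below 11, while regions past 40 kb reach 98.1.

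Over the 10 windows, which cover 703 kb, 55 and 35 peaks were found (Input), 44 and 43 (Myc) and 35 and 36 (PCM1), each peak counted once. In the equal lists there were 36 and 35, 32 and 35, and 35 and 33. A peak in the window in all 6 libraries was found for 8 members, against 75.8% of all genes, with Adgre1 and Ptprc the exceptions. The median density was 9.50 peaks per 100 kb for members and 6.37 for all genes, and 4.81 against 4.96 in the equal lists.

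The peaks merged into 69 regions. Of these, 26 (37.7%; 95% Wilson interval 27.2 to 49.5%, which covers counting error only) were called in all 6 libraries, against 28.8% of all 169881 regions. The share was 26 of 52 in the equal lists, against 37% of all 118246. Of the 69 regions, 25 lay in the Cx3cr1 window, and so did 13 of the 26 called in all 6 libraries. With RefSeq gene models and all peaks the share was 14 of 46 (30.4%). Regions at the start of a neighbouring gene made up 16 of the 69, and 12 of the 16 were called in all 6 libraries, with a median of the mean percentile of 89.0. The 16 include 7 in the Cx3cr1 window and 2 at the macrophage gene C1qc, and 0 of the latter were called in all 6 libraries. Regions at a member's own coding start numbered 8, none in all 6 libraries, with a median of 4.96. Regions elsewhere in a member gene alone numbered 22, of which 7 were in all 6, with a median of 11.7. Of the 12 genes other than complement genes that start in a member window, 11 had a start peak in all 6 libraries, against 56.1% of all genes. Gorasp1 and Ttc21a share a start region and so do Bola2 and Slx1b, so these genes are not independent. Matn1, a cartilage matrix gene beside Laptm5, had no start peak in any library.

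Regions limited to 1 group were few. Both Input libraries and no other had 1 region, 32294 bp from the 5′ end of Cx3cr1, at 21.4 and 6.23, against 1.08% of all regions. Both Myc libraries and no other had 1, in an intron of Xirp1 in the Cx3cr1 window, at 29.3 and 43.0, against 1.84%. Both PCM1 libraries and no other had 0, against 0.254%. In the equal lists, both Input libraries and no other had 2 of 52 regions (3.85%), against 1.01% of all regions. These were the region at the 5′ end of Spi1 and the one between C1qa and C1qc. The count was 0 for Myc, against 1.96%, and 1 (1.92%) for PCM1, in an exon of Mybpc3, against 1.35%. The Cx3cr1 region named for Input was then called in Input replicate 2 alone, and the Xirp1 region in Myc replicate 2 alone. In the equal lists, both Input libraries ranked above all 4 others at 3 of 52 regions (5.77%), against 6.25% of all regions. The count was 5 (9.62%) for Myc, against 12.6%, and 8 (15.4%) for PCM1, against 10.3%. The 3 Input regions were the start region of Spi1, the region between C1qa and C1qc, and a region of the long Cx3cr1 transcript, and the 8 PCM1 regions included both at the start of Mybpc3, the one at the start of Xirp1, the one 3559 bp before Spi1 and the one 6686 bp before Laptm5.

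The annotated 5′ ends of the members were poor in CpG. This does not cover coding starts further inside a gene, such as the Coro1a window given above, with 19 CpG in 300 bases. The observed-to-expected CpG ratio within 500 bp of the 5′ end was 0.115 to 0.337, with a median of 0.212, against 0.552 for all genes. Of the 7874 genes at or below 0.337, 11.2% had a start peak in all 6 libraries and 74.6% in none, against 81.3% and 7.79% of the genes above. Among the 10 members it was 0 in all 6 and 6 in none. The cardiomyocyte list had a median of 0.246 and 8 of its 10 genes had a start peak in all 6 libraries, and Mybpc3 had 0.158 and a peak in all 6. The part of CpG content in the members' values was not tested.

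Other leukocyte genes were described from lists of known markers. Of 20 further macrophage genes, 5 had a start peak in all 6 libraries, 7 in some and 8 in none, against 56.1%, 12.1% and 31.8% of all genes. Among the 5 were the transcription factors Cebpa (mean percentile 90.7) and Irf8 (86.6), the receptor tyrosine kinase Mertk (91.4) and the LPS co-receptor Cd14 (31.7). The CpG ratios of these named genes were 0.889, 0.735, 0.568 and 0.353 in that order, all above the highest member. Of all genes above the highest member, 81.3% had a start peak in all 6 libraries. C1qc had 57.5 and 49.1 (Input), 23.9 and 7.8 (Myc) and no peak (PCM1). Lyz2, which encodes macrophage lysozyme, had 20.5 and 2.2 in Input and no peak in any other library, the one gene of the list with peaks in both libraries of 1 group alone when all peaks are used. Lyz2 was called in Input replicate 2 alone in the equal lists, at 2.24, and C1qc was the gene with this pattern, at 25.8 and 49.1 (Input). No share over all genes was computed for this pattern, so it cannot be judged against a background. The wider order, both Input values above all others, was found at 3.26% of all genes with all peaks. Of 10 genes shared by most leukocytes, 3 had a start peak in all 6 libraries, against 56.1% of all genes, namely Lcp1 (71.3), Arhgdib (41.0) and Itgb2 (39.3).

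Markers of other heart cells were counted in the same way. A start peak in all 6 libraries was found for 8 of 10 cardiomyocyte, 8 of 10 endothelial and 6 of 10 fibroblast genes. It was found for 0 of the 10 members and 56.1% of all genes. Endothelial and fibroblast starts were called in PCM1 libraries too, with 8 and 9 endothelial and 7 and 6 fibroblast genes called in the replicates, against 60.2 and 59.9% of all protein-coding genes.

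**Figure D5:**
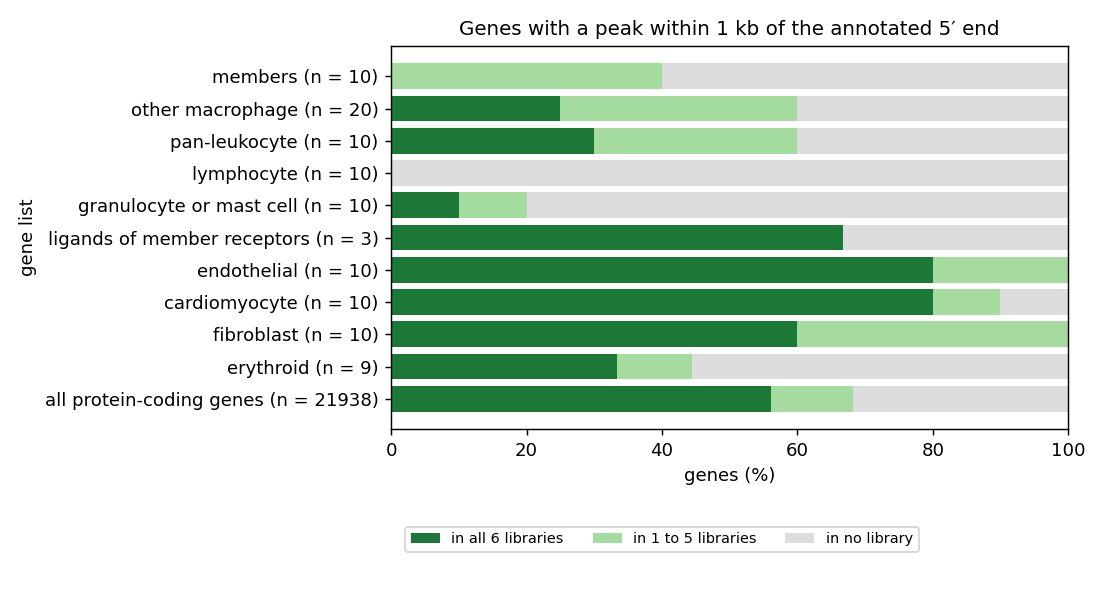
Share of the genes of each list (%) with a peak within 1 kb of the annotated 5′ end in all 6 libraries (dark green), in 1 to 5 (light green) or in none (grey), with the number of genes in each list. The members have 0% in all 6 libraries, against 80% of the cardiomyocyte and endothelial lists and 56.1% of all protein-coding genes.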

How the data were processed

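Omni-ATAC-Seq was measured in 6 libraries, 2 each of Input, Myc and PCM1, grouped by their labels. Reads were trimmed by the authors (fastq-mcf) and aligned to mm10 by Bowtie2 2.3.3.1. Duplicates were marked (Picard 2.2.1), blacklisted regions were taken out (bedtools 2.7.1) and alignments were shifted for the Tn5 cut. MACS2 2.1.0.20160309 then called peaks, library by library, at a q-value of 0.05, with no pooling of replicates. Each deposited list gives a fold, the ratio of summit pileup to local background. The deposited −log10 columns hold the summit's p-value and q-value, and the deposited score is a whole number made from the latter. Lists hold only called peaks, and no read counts were used, so a difference in depth changes which weak sites appear.

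Peaks were ranked by q-value within each library in Python 3.11.15 (numpy 2.4.6, pandas 2.3.3, scipy 1.17.1, matplotlib 3.10.9). Overlaps of at least 1 bp were counted with GENCODE M21, and overlapping peaks of the 6 libraries were merged into regions. Pileup and background were solved from fold and p-value, within 0.02 for over 99.9% of the peaks solved. Both steps were tested on simulated data. The 10 members, the gene lists and the tests were chosen with earlier results of these data known. Genes named are the members, genes starting in their windows, and, in each other list, up to 4 with a start peak in all 6 libraries (Cd14 was added to these in the macrophage list after its value was seen) and those with a peak in both libraries of 1 group alone. Regions named are those of 1 group, the strongest of each window and, chosen after their values were seen, others described one by one. Some genes that the rule names are not reported here. C1qc is a further macrophage gene that starts in a window. Spi1 against Mybpc3 was tested by an exact permutation test over sign flips. The same test of Csf1r against Pdgfrb was run and carries no information, since Csf1r had no start peak. Groups of 2 libraries were not tested against each other: the smallest two-sided exact p is 0.333 for 2 against 2. The labels call replicates biological, and the spread given is that between libraries.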

Additional observations from a re-analysis of the deposited data

How the results depend on the processing

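The count of members with a peak at their own 5′ end, 4 with all peaks, was 1 at an equal number of peaks, and 3 to 4 with 1 library left out. It was 3 without Myc replicate 1, the only library with a peak at C1qa. The mean number of peaks per library in the member windows, 41.3, was 27.3 with a flank of 2 kb, 24.3 in gene bodies alone and 26 with RefSeq gene models, and 38.6 to 42.6 with 1 library left out. The share of merged regions in all libraries, 37.7%, was 50% at an equal number of peaks, 34.7% with a flank of 2 kb, 34.1% in gene bodies, 34.7% with regions merged by summits, 30.4% with RefSeq gene models, and 38.2 to 44.1% with 1 library left out. The difference of Spi1 from Mybpc3 kept its direction under every alternative run. With 1 library left out it was -79.6 to -65.6 percentile points, with p = 0.0625 by the exact permutation test, the smallest that 5 libraries allow. That of Csf1r from Pdgfrb was -60.7 to -51.2, and its direction was fixed by Csf1r at 0. The median over members is 0 wherever too few of them have a start peak, so it says nothing of stability. The median over members of their mean over libraries was 0 with all peaks and 0.677 with any coding start, a start window of 2 kb or RefSeq gene models. RefSeq gene models, and any coding start for the 2 pairs, were alternatives chosen after seeing the data. No paired analysis was possible because no test compared groups, 2 pairs of libraries are too few for an exact test, and peak lists hold no counts to model. Depth limits what a missing peak can show, and in Input replicate 1 weaker sites were callable than in the others.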

Other observations

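Genes of other blood cells were also described. Of 10 lymphocyte genes, 0 had a peak within 1 kb of the 5′ end in any library, against 68.2% of all genes in at least 1 library. With any coding start counted, Pax5, a transcription factor of B cells, had one at a mean percentile of 93.5. Of 10 granulocyte or mast cell genes, 1 had a peak in all 6 libraries, the receptor tyrosine kinase gene Kit, at percentiles of 74.2 to 90.7. Of these genes 8 had none, and the shares over all genes were 56.1% in all 6 and 31.8% in none. Of 9 erythroid genes, 3 had a peak in all 6 libraries, against 56.1% of all genes. Among them were Klf1 (mean percentile 88.2), a transcription factor of red cell precursors, and the erythropoietin receptor gene Epor (43.6).

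Ligands of 2 member receptors were also counted. Csf1, a ligand of Csf1r, had a start peak at percentiles of 91.3 to 95.2 over the 6 libraries, and Cx3cl1, the ligand of Cx3cr1, at 77.0 to 85.7. Il34, the other ligand of Csf1r, had none, so 2 of 3 had a start peak in all 6 libraries, against 56.1% of all genes. Csf1r and Cx3cr1 themselves had no start peak in any library.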
